A study of Mus musculus with 12 samples.

Results

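The genes described here encode the proteins with which cells hold on to each other and to the matrix, and those with which they sense contact with a neighbour. They are the cadherins, protocadherins, desmosomal cadherins and catenins, the integrins, the claudins and other tight junction proteins, the connexins, the immunoglobulin adhesion molecules, the contactins, and the Eph, ephrin, semaphorin and plexin families. Members were chosen by gene symbol, by a rule that names no measured value but was written with earlier results of these data known. Every named gene whose symbol starts with the stem of these families was taken, and Cdh2, Ctnna1, Pcdh9 and Cntnap2 were left out by the rule. This gave 127 members with 145 probes, out of 8127 named genes, and a gene was read from its brightest probe by mean over the arrays. The same rule matches 274 genes in the RefSeq table of mouse genes used for naming. Members without a named probe, among them Gja1, Itgb1, Cdh1 and Ctnnb1, were not analysed here.

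Granulosa cells surround the egg in an ovarian follicle and form an epithelium with no blood vessels of its own, in which cells are joined by cadherin-based adherens junctions and exchange small molecules through gap junctions built of connexins. Catenins tie cadherins to the actin skeleton, integrins tie cells to collagen and laminin, and claudins make tight junctions. Ephrins and semaphorins are contact or short-range signals that are read by Eph receptors and plexins, and they act on cell shape and attachment in many tissues. Activin A, a relative of transforming growth factor beta, acts on granulosa cells through SMAD transcription factors, and follistatin binds it and keeps it from its receptors.

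Primary cultures of granulosa cells from immature mice, 21 to 23 days of age, were given activin A (the label Activin), activin A with its antagonist follistatin (Activin+Follistatin) or the vehicle PBS, each for 24 h. The labels give no strain and no genotype. Each biological replicate was a pool of 14 to 20 ovaries, so a value is an average over several animals and over whatever other cells came with the granulosa cells. The experiment was done 4 times, and each experiment gave 1 array per treatment, 12 arrays in all. RNA was amplified from 100 ng and read on 1-colour Illumina Sentrix Mouse-6 arrays. Which arrays shared a chip is not given in the sources used here.

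Values are the deposited signals, read as log2, between 6.75 and 16.2, with array medians of 7.17 to 7.18 and correlations between arrays of 0.967 to 0.994. The highest mean of a control spot, 7.31, served as background. Background was not subtracted, so a log2 difference near 7.31 understates the change in RNA. Of the granulosa cell markers, 3 of 15 had a named probe and all 3 were above background: Amhr2, the receptor for anti-Müllerian hormone, averaged 12.7, Fst 10.7 and Wt1 9.38. The Wt1 signal with activin differed by -0.38 from PBS and by -0.73 from activin plus follistatin. Both passed only with experiment as a block (limma, adjusted p = 0.0196, against 0.578, and 0.000209, against 0.0792). Fst went the other way, with means of 12.9 with activin, 8.70 with activin plus follistatin and 10.4 with PBS. Its rise with activin was called against PBS and against activin plus follistatin (adjusted p = 3.13e-05 and 2.08e-07). Activin plus follistatin also differed from PBS, by -1.70, and this was called without the block (adjusted p = 0.0028). Amhr2 was called in no comparison. Of the theca and stroma markers 9 of 14 were measured and 4 were above background. Insl3 and Lhcgr, which mark theca cells, were below it at 6.98 and 7.21, while the stromal genes Dcn and Col3a1 averaged 9.33 and 8.45. In bulk RNA, fewer cells of a type and less RNA per cell cannot be told apart.

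Most of the 127 members had a mean signal no higher than that of the brightest control spot. A mean above background was found for 31 of them, 24.4%, against 4068 of the 8127 named genes, 50.1%. All 8 desmosomal cadherins were below it, with Dsg1a highest at 7.30, and so were 10 of 12 cadherins, with Cdh11, a mesenchymal cadherin, at 7.20. Of 39 clustered protocadherins, which share exons and closely related sequences, 4 were above it. Integrins had 5 of 13 members above background, semaphorins 4 of 10, plexins 3 of 4 and immunoglobulin adhesion molecules 3 of 5. Claudins had 2 of 8, Eph receptors 2 of 5, and connexins 1 of 6, Gjc1, which encodes connexin 45. The probes with a mean above 9 belonged to 10 members, and brightness depends on the probe as well as on the RNA, so it gives no order of abundance between genes.

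**Figure D1:**
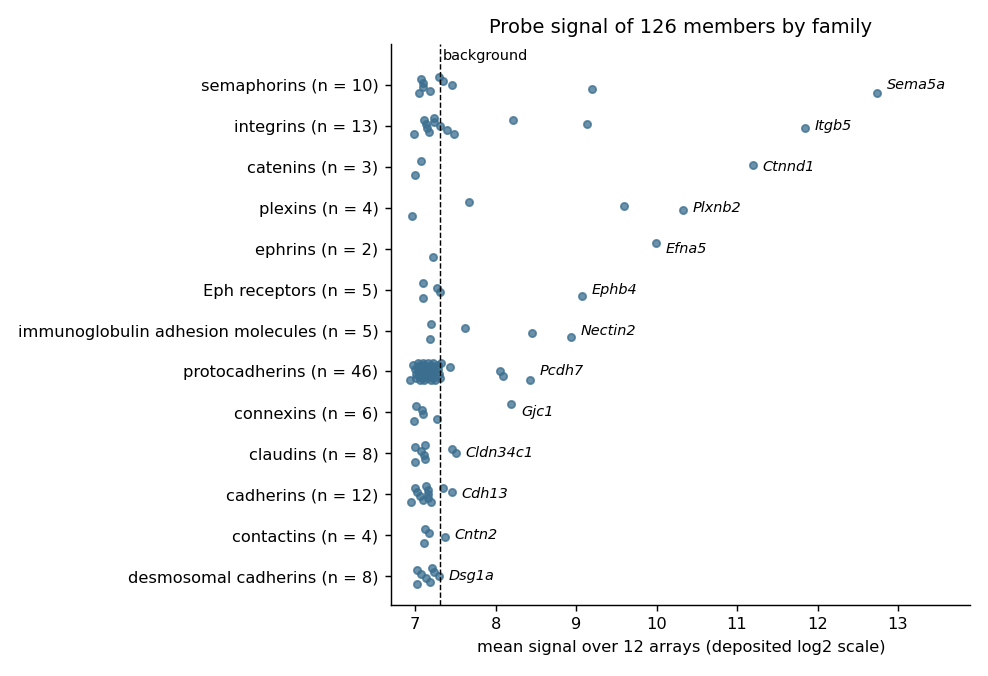
Mean signal over 12 arrays (x axis, deposited log2 scale) of the brightest probe of each of 126 members, by family (y axis, with the number of members); the dashed line is the background of 7.31 and the brightest member of each family is named. Points right of the line are 30 members above background, and the brightest are Sema5a, Itgb5 and Ctnnd1.

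Activin against PBS shows which of these transcripts activin moves. In activin-treated cells 3 of 127 members were called at an adjusted p below 0.05: Itga11 and Ctnnd1 fell and Sema7a rose. In the same fit 5% of named genes were called, so the members' share, 2.36%, was not above that of genes at large. All 3 were among the 31 members above background, of which 9.68% were called, against 9.69% of all named genes above background. The members' shares depend on the rule, which was written with earlier results known and leaves out 4 genes of these families. Of those 4, Pcdh9 and Cntnap2 were called lower here by limma (adjusted p = 4.89e-06 and 0.000336). The median difference over the 127 members was 0.004. An unadjusted p below 0.05 was found for 16 of 127 members, beside 1352 of 8127 named genes. With experiment as a replicate block, 8 members were called, 4 higher and 4 lower, against 10.6% of named genes, and the members' share was 6.3%. All 8 were among the 31 above background, and the share called of named genes above background was not taken with the block. The 5 added were Sema5a, Cntn2 and Epha4, higher, and Pcdh7 and Cldn34c1, lower. Each was lost in at least 2 of the 4 blocked fits that left out 1 experiment. The filter at background used the mean over all arrays. Cntn2 and Epha4 passed it through their activin arrays alone, so the count among the 31 partly reflects the filter.

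Itga11 encodes integrin alpha 11, which pairs with the beta 1 chain into a receptor for fibrillar collagens and is known mainly from fibroblasts. Its signal was 8.52, 8.45, 8.42 and 8.16 in activin-treated cells of experiments 1 to 4, 9.48, 9.47, 9.71 and 9.90 with activin plus follistatin, and 9.38, 9.23, 9.26 and 9.65 with PBS. Every activin array lay below every array of the other treatments, and the means were 8.39 ± 0.15 with activin, 9.64 ± 0.21 with activin plus follistatin and 9.38 ± 0.19 with PBS (SD, n = 4 each). Itga11 fell by 0.99 ± 0.12 (SE) on the log2 scale with activin against PBS, a 1.99-fold lower signal (adjusted p = 0.000728, limma). It fell by 1.26 ± 0.12, or 2.39-fold, with activin against activin plus follistatin (adjusted p = 4.94e-05). Both calls held in each fit that left out 1 of the 12 arrays or 1 of the 4 experiments. A second probe of the gene averaged 7.22, at background, and was not called.

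Ctnnd1 encodes p120-catenin, which binds the inner side of classical cadherins and keeps them at the cell surface. Its signal was 10.75, 10.67, 10.60 and 11.02 with activin, 11.75, 11.62, 11.54 and 11.33 with activin plus follistatin, and 11.42, 10.99, 11.32 and 11.35 with PBS. The activin arrays lay below all of those with follistatin, while activin in experiment 4 was just above PBS in experiment 2, although activin was lower than PBS within all 4 experiments. Ctnnd1 fell by 0.51 ± 0.12 with activin against PBS (adjusted p = 0.0386), and by 0.80 ± 0.12, or 1.75-fold, against activin plus follistatin (adjusted p = 0.00109). The call against PBS was lost, at an adjusted p of up to 0.113, in 8 of 12 fits that left out 1 array, and held only without Activin+Follistatin 1, PBS 2, Activin 4 or Activin+Follistatin 4. It was also lost without experiment 1, 2 or 3, while the call against activin plus follistatin held in every such fit.

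The dimmer probe of Ctnnd1 read 8.50, 8.40, 8.54 and 8.58 with activin, 9.07, 8.98, 9.09 and 9.23 with activin plus follistatin, and 8.40, 8.75, 8.86 and 8.75 with PBS. It too set activin apart from activin plus follistatin, with a difference of -0.59 ± 0.09 (adjusted p = 0.00132). Against PBS it was not called, at -0.19 ± 0.09 (adjusted p = 0.432). With activin plus follistatin it was above PBS on all arrays, by 0.40 ± 0.09, which passed with the block (adjusted p = 0.03) and not without it (adjusted p = 0.15).

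Sema7a encodes a membrane-anchored semaphorin that binds integrins and plexin C1. Its signal was 7.54, 7.52, 7.69 and 7.59 with activin, 7.39, 7.34, 7.37 and 7.37 with activin plus follistatin, and 7.46, 7.41, 7.40 and 7.44 with PBS. The treatments did not overlap, but all values were close to background. Sema7a rose by 0.16 ± 0.03 against PBS (adjusted p = 0.036) and by 0.22 ± 0.03 against activin plus follistatin (adjusted p = 0.00228). The call against PBS was lost, at an adjusted p of up to 0.107, without any 1 of 9 arrays, and held only without Activin 1, Activin+Follistatin 1 or Activin 2. It was lost without any 1 experiment, while the call against activin plus follistatin held in all these fits.

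**Figure D2:**
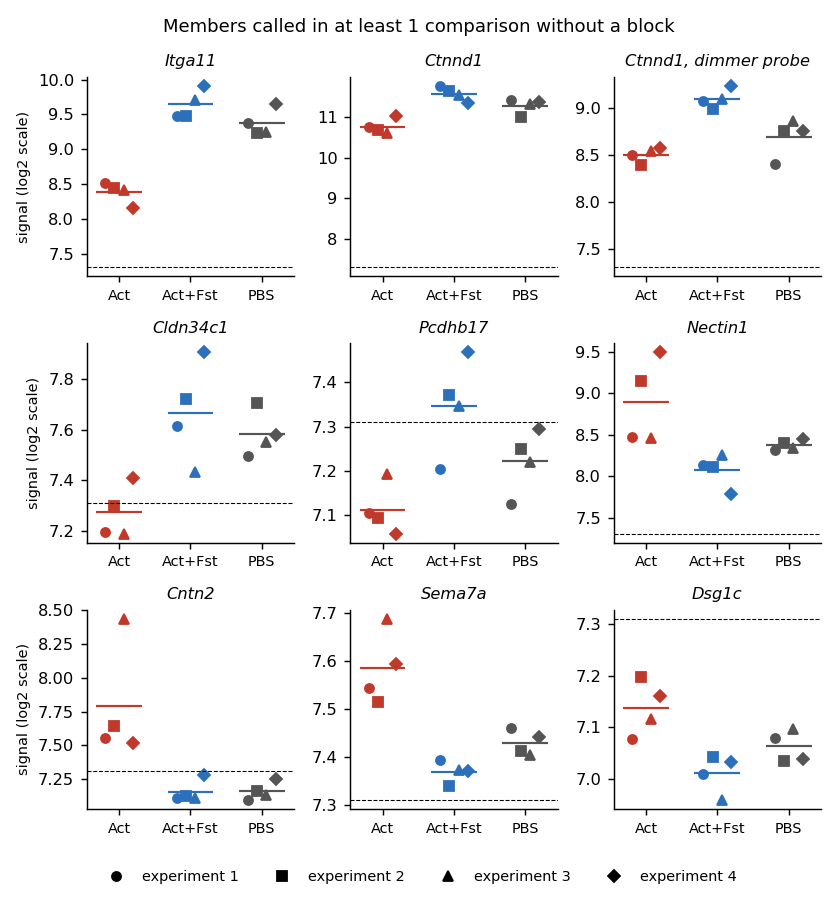
Signal (y axis, deposited log2 scale, a scale of its own in each panel) of the 8 members called without a block, and of the dimmer Ctnnd1 probe, with activin (Act), activin plus follistatin (Act+Fst) and PBS. A point is 1 array, its shape the experiment, the bar the mean of 4 arrays and the dashed line background; the activin arrays of Itga11 lie below all 8 others, and Dsg1c lies below background.

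The stretches before the start sites of these 3 members are shown because they are the genes that differed between activin and PBS, and because SMAD proteins are known to bind the letters GTCT. Each is 250 bases that end at the base before a transcript start, from RefSeq on GRCm38.p6, 5′ to 3′ on the gene's strand, with GTCT and its reverse complement AGAC in capitals. RefSeq gives Ctnnd1 a pair of starts in the table used, and both are printed.
Itga11, chr9:62677605-62677854, + strand: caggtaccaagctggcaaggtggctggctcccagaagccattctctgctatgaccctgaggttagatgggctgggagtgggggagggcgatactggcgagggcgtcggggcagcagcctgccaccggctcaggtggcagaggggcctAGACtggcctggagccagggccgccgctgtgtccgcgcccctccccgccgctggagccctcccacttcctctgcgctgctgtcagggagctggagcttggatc
Ctnnd1 upstream start, chr2:84658978-84659227, - strand: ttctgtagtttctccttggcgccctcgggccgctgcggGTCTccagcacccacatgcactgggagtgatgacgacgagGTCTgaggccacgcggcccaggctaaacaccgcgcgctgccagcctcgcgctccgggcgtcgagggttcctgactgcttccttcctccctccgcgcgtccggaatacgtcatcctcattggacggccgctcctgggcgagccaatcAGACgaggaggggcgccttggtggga
Ctnnd1 downstream start, chr2:84650741-84650990, - strand: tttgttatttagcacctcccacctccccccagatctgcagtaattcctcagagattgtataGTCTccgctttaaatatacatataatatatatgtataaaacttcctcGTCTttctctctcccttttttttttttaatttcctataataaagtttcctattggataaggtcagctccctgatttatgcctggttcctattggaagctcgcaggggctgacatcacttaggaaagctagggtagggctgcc
Sema7a, chr9:57939862-57940111, + strand: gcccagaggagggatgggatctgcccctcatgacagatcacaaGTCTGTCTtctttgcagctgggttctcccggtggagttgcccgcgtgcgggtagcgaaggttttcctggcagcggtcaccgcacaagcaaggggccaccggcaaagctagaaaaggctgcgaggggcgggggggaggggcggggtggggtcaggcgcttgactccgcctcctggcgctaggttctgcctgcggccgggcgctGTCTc
GTCT in either direction was found 1 time before Itga11, 3 and 2 times before the starts of Ctnnd1 and 3 times before Sema7a. Such a short string is present in 82.9% of the 32851 promoters of that length in the table. The palindrome GTCTAGAC, which 0.167% of promoters hold, was in none of these windows. AAGGTCA, the half-site of nuclear receptors (4.08% of promoters), was found 1 time before the downstream start of Ctnnd1, and GGGCGG, a GC box (32.7%), 2 times before Sema7a. Neither GTAAACA, a forkhead motif (3.17%), nor TGANTCA, the AP-1 motif (6.75%), was found, each searched on both strands. A match is a string of letters and not a site, and no match says only that these letters are not in this window. The window before Itga11 was 68.4% G and C, that before Sema7a 66.4%, and those before Ctnnd1 66.8% and 40%, where the median promoter had 52.4%.

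Activin against activin plus follistatin asks what activin does when its antagonist is present or not, and here 8 of 127 members were called. Higher with activin were Sema7a, Nectin1, Cntn2 and Dsg1c. Lower were Itga11, Ctnnd1, Cldn34c1 and Pcdhb17. The members' share was 6.3%, against 11.9% of named genes, but 24.4% of members were above background, against 50.1% of named genes. Of the 31 members above background 6 were called. The share called of named genes above background was not taken for this comparison, with or without the block. The counts among the 31 thus have no like share beside them. With the replicate block, 18 members were called, 10 higher and 8 lower, a share of 14.2% against 18.9% of named genes. They include 15 of the 31 members above background. Among these are Cntn2 and Epha4, which were above it only on activin arrays. The median over the 127 members was -0.01, and 24 had an unadjusted p below 0.05, beside 1933 of 8127 named genes. This comparison shares its activin arrays with the one against PBS.

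Nectin1 encodes an immunoglobulin-like adhesion molecule that starts adherens junctions together with cadherins. Its signal was 8.48, 9.15, 8.46 and 9.49 with activin, 8.13, 8.11, 8.26 and 7.79 with activin plus follistatin, and 8.32, 8.40, 8.34 and 8.45 with PBS. No treatment overlapped another, with activin highest and activin plus follistatin lowest, and the activin arrays of experiments 2 and 4 were well above those of experiments 1 and 3. Nectin1 rose by 0.82 ± 0.20, or 1.77-fold, with activin against activin plus follistatin (adjusted p = 0.0267). This call was lost without Activin 2 or without Activin+Follistatin 1, 2 or 4, at an adjusted p of up to 0.0814, and without experiment 2 or 4 (up to 0.201). Against PBS the difference of 0.52 ± 0.20 was not called (adjusted p = 0.29), and a second probe at background showed no call.

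Nectin2 encodes a relative of Nectin1 found in the same junctions. Its signal was 8.83, 8.61, 9.35 and 8.27 with activin, 9.14, 9.03, 9.41 and 9.24 with activin plus follistatin, and 9.09, 8.90, 8.84 and 8.54 with PBS. The treatments overlapped, although activin was lower than activin plus follistatin within all 4 experiments. The difference of -0.44 ± 0.19 was not called (adjusted p = 0.284, and 0.104 with the block).

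Cntn2 encodes a contactin, a lipid-anchored adhesion molecule known mainly from axons. Its signal was 7.56, 7.65, 8.43 and 7.51 with activin, 7.12, 7.12, 7.11 and 7.28 with activin plus follistatin, and 7.10, 7.17, 7.14 and 7.25 with PBS. It was above background on all 4 activin arrays and below it on the other 8, and Activin 3 stood well above the rest. Cntn2 rose by 0.63 ± 0.16 against activin plus follistatin (adjusted p = 0.0372). Against PBS it was higher by 0.62 ± 0.16, which passed only with the block (adjusted p = 0.0426, against 0.0748 without). Without Activin 3 the difference was 0.41 against either of the other treatments, with adjusted p of 0.000726 against activin plus follistatin and 0.00237 against PBS, since the spread fell with it. The call against activin plus follistatin was lost, at up to 0.0955, in the 9 fits that left out any other array than Activin 1, Activin 3 or Activin 4, and without experiment 1, 2 or 4 (up to 0.17). A second probe of Cntn2 averaged 7.13, below background, and differed by -0.02 in the same comparison.

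Cldn34c1 encodes a protein of the claudin family, whose role in the ovary is not described here. Its signal was 7.20, 7.30, 7.19 and 7.41 with activin, 7.61, 7.72, 7.43 and 7.90 with activin plus follistatin, and 7.50, 7.70, 7.55 and 7.58 with PBS. All activin arrays were below all others, and 3 of the 4 were below background. Cldn34c1 fell by 0.39 ± 0.09 against activin plus follistatin (adjusted p = 0.0175), a call lost without Activin 1 or Activin+Follistatin 2 (up to 0.0549) and without experiment 1 or 2 (up to 0.118). Against PBS it was lower by 0.31 ± 0.09, which passed with the block (adjusted p = 0.0125) and not without it (0.11). Of the other 7 claudins, Cldn4, a claudin of tight epithelia, was above background at 7.45 and was called in no comparison.

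Pcdhb17 and Dsg1c were called below background, where signal of other transcripts can make up a large part of a reading. Pcdhb17, a clustered protocadherin, read 7.10, 7.09, 7.19 and 7.06 with activin, 7.20, 7.37, 7.35 and 7.47 with activin plus follistatin, and 7.12, 7.25, 7.22 and 7.29 with PBS. It fell by 0.24 ± 0.05 against activin plus follistatin (adjusted p = 0.0205), with no overlap between these groups. The call was lost without any 1 of Activin 1, 2 and 4 or Activin+Follistatin 2, 3 and 4 (up to 0.0606), and without experiment 2, 3 or 4 (up to 0.176).

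Dsg1c, a mouse copy of desmoglein 1 with near-identical neighbours Dsg1a and Dsg1b, read 7.08, 7.20, 7.12 and 7.16 with activin, 7.01, 7.04, 6.96 and 7.03 with activin plus follistatin, and 7.08, 7.04, 7.10 and 7.04 with PBS. Activin did not overlap activin plus follistatin, and no value reached background. It rose by 0.13 ± 0.03 (adjusted p = 0.0285), lost without Activin 2, Activin 4, Activin+Follistatin 1 or Activin+Follistatin 3 (up to 0.0889) and without any 1 experiment (up to 0.141). Dsg1a, the brightest desmosomal cadherin, was called in no comparison, and probes for such copies may read each other's RNA.

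Activin plus follistatin against PBS asks whether the mixture differs from vehicle, and limma called 0 of 127 members, against 0.258% of named genes. At an unadjusted p below 0.05 there were 7 of 127 members, beside 759 of 8127 named genes. With the replicate block 1 member, Plxna2, was called lower, a share of 0.787% against 2.17% of named genes. Plxna2 encodes plexin A2, a receptor for class 6 semaphorins and, with neuropilins, for class 3 semaphorins. Its signal was 9.73, 10.27, 9.06 and 10.04 with activin, 9.23, 9.30, 8.88 and 8.94 with activin plus follistatin, and 9.91, 10.35, 9.46 and 9.93 with PBS. Activin plus follistatin was below PBS on all arrays, while activin overlapped both. The difference from PBS was -0.82 ± 0.24 without the block (adjusted p = 0.367), and it passed with it at an SE of 0.12 (adjusted p = 0.0138), though not when experiment 1 or 2 was left out (up to 0.0957). Activin was higher than activin plus follistatin by 0.68, which also passed only with the block (adjusted p = 0.00466).

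**Figure D3:**
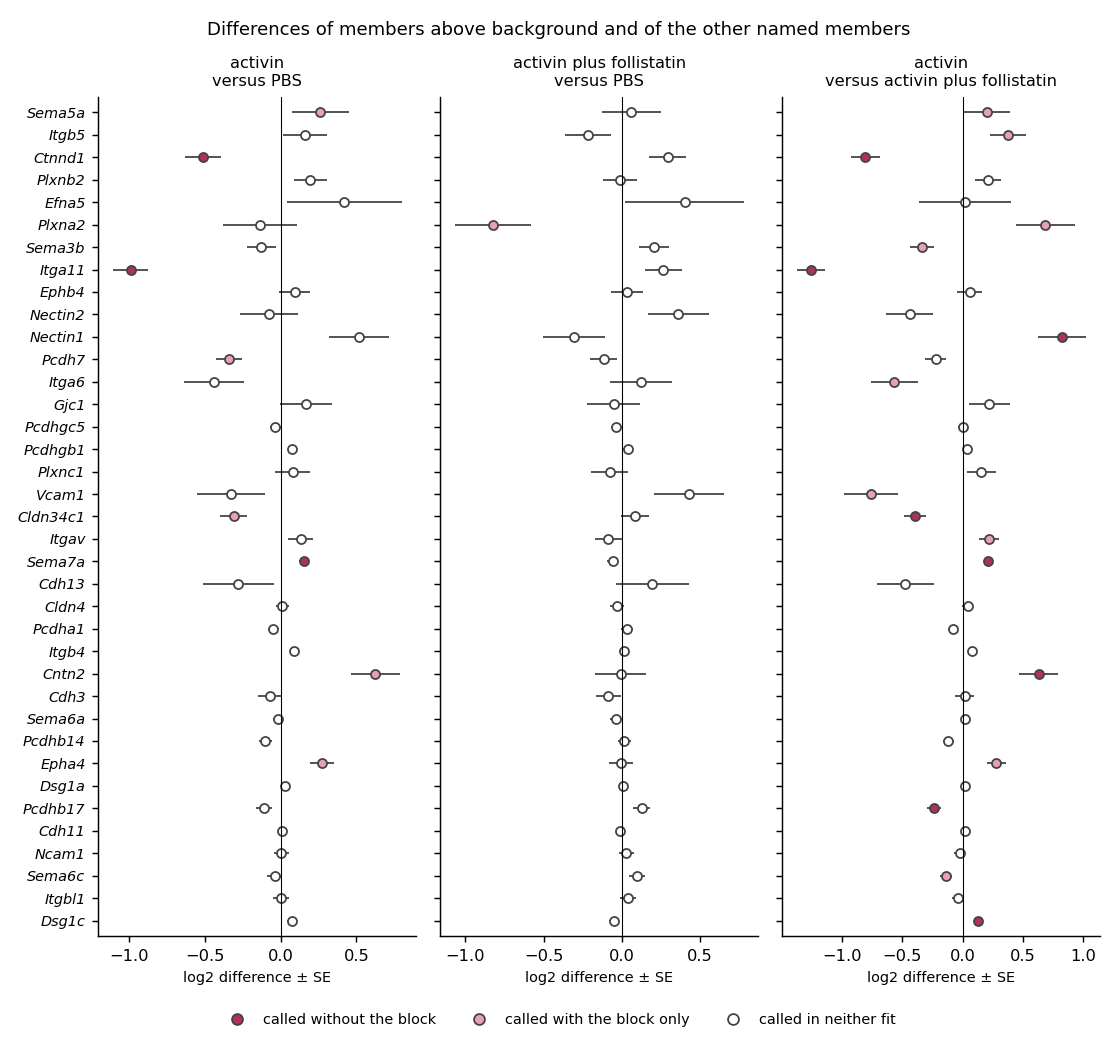
Differences (x axis, log2, points with SE bars from the fit without a block) of 30 members above background and the other members named in the text, in the order of mean signal, for activin against PBS, activin plus follistatin against PBS, and activin against activin plus follistatin. Filled points were called without the block, pale points with the block only, and open points in neither fit; the first panel has 3 filled points, the middle 0 and the last 8.

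Of the integrin chains that bind laminin and other matrix proteins, Itga6, Itgav and Itgb5 passed between activin and activin plus follistatin with the block and not without it. Itga6, the alpha chain of laminin receptors, read 7.92, 8.17, 7.81 and 7.62 with activin, 8.14, 8.64, 8.20 and 8.79 with activin plus follistatin, and 7.95, 8.70, 8.04 and 8.58 with PBS. It was lower with activin than with activin plus follistatin within each experiment, although the groups overlapped, by 0.56 ± 0.20 (adjusted p = 0.147, and 0.0257 with the block, which was lost without experiment 2 or 3). Itgav, whose product binds the RGD sequence of matrix proteins, was higher with activin within all 4 experiments, by 0.22 ± 0.09 (adjusted p = 0.204, and 0.0497 with the block). Itgb5, a beta chain that pairs with it into a receptor for vitronectin, read 12.20, 12.30, 11.91 and 11.68 with activin, 11.50, 11.77, 11.62 and 11.70 with activin plus follistatin, and 11.73, 12.23, 11.64 and 11.85 with PBS. Activin was higher in 3 of 4 experiments, by 0.38 ± 0.15 (adjusted p = 0.197, and 0.0493 with the block), and experiment 4 did not share this direction. In all, 4 of 13 integrin symbols were called with the block in this comparison, 2 higher and 2 lower, a share of 30.8% where 18.9% of named genes were called, and 1, Itga11, without it, a share of 7.69% where 11.9% were. Of the members that passed only with the block in this comparison, Vcam1, Sema3b and Plxna2 also passed without any 1 experiment, while Itga6, Itgav, Itgb5, Sema5a, Sema6c and Epha4 did not in at least 2 of the 4 such fits. Itgb1bp1 and Itgbl1 match the integrin stem but are not integrin chains.

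Pcdh7, a non-clustered protocadherin, read 8.31, 8.17, 8.06 and 8.41 with activin, 8.34, 8.44, 8.61 and 8.46 with activin plus follistatin, and 8.54, 8.42, 8.73 and 8.61 with PBS. It was below PBS on all activin arrays, by 0.34 ± 0.09, and passed only with the block (adjusted p = 0.0387, against 0.0643). Cdh3, P-cadherin, at a mean of 7.35, and Gjc1, at 8.19, were called in no treatment comparison, nor was Ncam1, a neural cell adhesion molecule, at 7.18.

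Vcam1 encodes the ligand of alpha 4 integrins, on which leukocytes and stromal cells attach. Its signal was 7.24, 7.25, 7.19 and 7.33 with activin, 7.71, 7.86, 7.72 and 8.76 with activin plus follistatin, and 7.53, 7.35, 7.34 and 8.09 with PBS. Activin lay below every other array, at background, and experiment 4 was highest in both other treatments. The difference from activin plus follistatin was -0.76 ± 0.22 (adjusted p = 0.0701, and 0.00416 with the block), and without any 1 experiment the blocked adjusted p stayed between 0.000425 and 0.0213.

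Cdh13, a cadherin anchored by lipid, showed the same 2 high arrays. It read 7.23, 7.19, 7.15 and 7.26 with activin, 7.25, 7.73, 7.41 and 8.34 with activin plus follistatin, and 7.29, 7.33, 7.21 and 8.12 with PBS. The groups overlapped and the differences were called in no comparison (adjusted p = 0.365 between activin and activin plus follistatin, and 0.072 with the block).

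Some stromal markers also differed between treatments, in either direction. Dcn, which encodes decorin, a proteoglycan of connective tissue, read 8.14, 7.59, 7.61 and 7.86 with activin, 10.69, 10.17, 9.72 and 11.87 with activin plus follistatin, and 9.93, 8.72, 8.61 and 11.004 with PBS. It too was lowest with activin and highest in experiment 4 of the other treatments. Activin differed from activin plus follistatin by -2.81 (adjusted p = 0.00662), and from PBS by -1.77, which passed only with the block (adjusted p = 0.00667, against 0.139). The summed signal of the 9 measured theca and stroma markers ran from 10.5 to 10.6 with activin, from 11.2 to 12.4 with activin plus follistatin and from 10.8 to 11.7 with PBS, as log2 of the sum. Signals were summed unlogged, so the brightest genes weigh most and the sum does not stand for each of the 9. Dcn had the highest mean with activin plus follistatin, 10.6, and with PBS, 9.57. Col3a1 was lower with activin, by 0.73 against PBS (adjusted p = 0.00654) and by 0.95 against activin plus follistatin, while Col1a1, Col1a2, Nr2f2, Ptch1, Insl3 and Lhcgr were called in no comparison. Gli2, a transcription factor of hedgehog signalling, went the other way: it was higher with activin, by 0.20 than with PBS and by 0.23 than with activin plus follistatin, each passing only with the block (adjusted p = 0.0443, against 0.441, and 0.0134, against 0.246). With the block, 1 of the 9 was called higher and 2 lower in each of these comparisons. Of 4 measured endothelial markers Robo4 was lower with activin than with activin plus follistatin by 0.80 (adjusted p = 0.000293). Pecam1, Emcn and Eng differed by -0.05, 0.01 and -0.01 with no call. Between activin and PBS these 3 differed by -0.02, 0.09 and 0.06, also with no call. With the block Robo4 was also called against PBS, lower with activin (adjusted p = 0.0409) and higher with activin plus follistatin (adjusted p = 0.00775). The summed signal of the endothelial list was 9.24 to 9.31 with activin, 9.45 to 9.55 with activin plus follistatin and 9.25 to 9.41 with PBS. The leukocyte list had 6 of 10 genes measured and 1, Lyz2, above background. Its sums were 9.65 to 9.76, 9.64 to 9.86 and 9.65 to 9.72 in the same order of treatments. Lyz2 was highest in experiment 4 within each treatment, at 7.62, 7.94 and 7.55 in that order. The part of other cells in the differences of Itga11, Vcam1, Cdh13 and the other members was not tested.

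Several guidance signals and receptors had probes among the brightest of the members. Between activin and activin plus follistatin 1 of 10 semaphorins was called without the block, and no plexin, Eph receptor or ephrin, where 11.9% of named genes were called. With the block 4 of 10 semaphorins, 1 of 4 plexins, 1 of 5 Eph receptors and 0 of 2 ephrins were called, where 18.9% of named genes were. Sema5a, a transmembrane semaphorin with thrombospondin repeats, read 12.67, 13.04, 12.67 and 13.18 with activin, 12.50, 12.79, 12.50 and 12.97 with activin plus follistatin, and 12.34, 12.70, 12.32 and 13.14 with PBS. The groups overlapped, with activin higher than either other treatment within all 4 experiments. The difference from PBS was 0.26 ± 0.19 (adjusted p = 0.705) and passed with the block (adjusted p = 0.0217), but not when experiment 1, 2 or 3 was left out (up to 0.152). The difference from activin plus follistatin, 0.20, likewise passed only with the block (adjusted p = 0.0477).

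Sema3b, a secreted class 3 semaphorin, read 8.80, 9.10, 9.09 and 9.18 with activin, 9.18, 9.61, 9.38 and 9.33 with activin plus follistatin, and 9.04, 9.19, 9.25 and 9.20 with PBS. Activin did not overlap activin plus follistatin, although the nearest arrays both rounded to 9.18, and the difference of -0.34 ± 0.10 passed with the block (adjusted p = 0.00302, against 0.0615), also without any 1 experiment. Sema6c, a transmembrane semaphorin with a mean of 7.18, below background, differed by -0.13 ± 0.05 (adjusted p = 0.00856 with the block, against 0.173). Plxnb2, the receptor for class 4 semaphorins, averaged 10.46 ± 0.21 with activin, 10.26 ± 0.07 with activin plus follistatin and 10.27 ± 0.19 with PBS (SD, n = 4 each) and was called in no comparison.

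Epha4, a receptor tyrosine kinase for ephrins, read 7.74, 7.48, 7.53 and 7.24 with activin, 7.22, 7.18, 7.21 and 7.26 with activin plus follistatin, and 7.27, 7.23, 7.24 and 7.16 with PBS. Only 3 activin arrays were above background, and none of the other 8. Activin was higher by 0.27 ± 0.08 than PBS and by 0.28 than activin plus follistatin, and each passed only with the block (adjusted p = 0.0467 and 0.0262). Ephb4, the receptor for ephrin-B2, and Efna5, a lipid-anchored ligand of EphA receptors, were called in no comparison. Efna5 ranged from 9.65 to 10.70 with activin, from 9.50 to 11.03 with activin plus follistatin and from 9.10 to 10.61 with PBS, so that the spread within a treatment exceeded the difference of 0.42 ± 0.38 from PBS.

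Arrays with the same number come from 1 experiment, and 6 of 127 members differed between the 4 experiments in an F-test with treatment in the fit, against 9.25% of named genes. They were Sema5a, Gjc1, Ephb4, Cdh3, Plxna2 and Sema6c, and 5 of them were above background. Sema5a averaged 12.50, 12.84, 12.50 and 13.10 in experiments 1 to 4 (adjusted p = 0.00117), and experiment held 79.2% of its variance. Gjc1, the only connexin above background, averaged 8.02, 8.30, 7.96 and 8.49 (adjusted p = 0.0131, 73.7% of variance). Like Sema5a it was highest in experiments 4 and 2 and lowest in 1 and 3.

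Ephb4 averaged 8.87, 9.11, 9.08 and 9.22 (adjusted p = 0.0208), with experiment 1 lowest, and Cdh3 averaged 7.50, 7.32, 7.22 and 7.37 (adjusted p = 0.0252), with experiment 1 highest. Plxna2 averaged 9.62, 9.97, 9.13 and 9.64 (adjusted p = 0.0351), and experiment held 36.9% of its variance. Over the 31 members above background the median share of variance was 44.0% for treatment and 34.9% for experiment, against 29.6% and 31.4% over all named genes above background. These shares include what chance gives to each term. Some cell type markers also differed between experiments in this F-test. Acta2, of smooth muscle, averaged 7.55, 8.08, 7.68 and 8.42 (adjusted p = 0.0319). Nlrp5, of oocytes, averaged 8.19, 7.06, 7.07 and 7.10 (adjusted p = 0.000701). The granulosa marker Wt1 averaged 9.72, 9.40, 8.93 and 9.46 (adjusted p = 0.00419). Dppa3, Krt8 and Krt18 also passed, while Cnn1, Krt19 and Upk3b did not. The part of other cells in the members' differences was not tested.

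**Figure D4:**
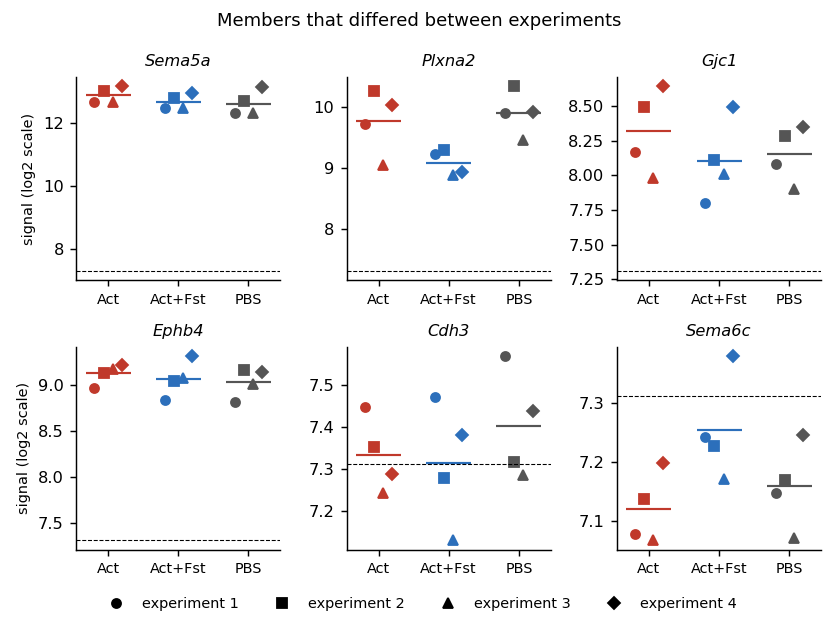
Signal (y axis, deposited log2 scale, a scale of its own in each panel) of the 6 members that differed between experiments, with activin (Act), activin plus follistatin (Act+Fst) and PBS; a point is 1 array, its shape the experiment, the bar the mean of 4 arrays and the dashed line background. For Sema5a and Gjc1 experiments 2 and 4 lie above experiments 1 and 3 in each treatment.

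Proteins that work with these families were read from a list of 52 partners, of which 27 had a named probe and 20 were above background. With activin against PBS 8 of the 27 were called, 1 higher and 7 lower. With activin against activin plus follistatin 12 were called, 2 higher and 10 lower. With activin plus follistatin against PBS limma called 0. In that comparison 7 of the 27 had an unadjusted p below 0.05, beside 759 of 8127 named genes. The calls are 29.6%, 44.4% and 0% of the list, where 5%, 11.9% and 0.258% of named genes were called. More of the list than of named genes was above background, 20 of 27 against 50.1%. Of named genes above background 9.69% were called with activin against PBS, and for the other comparisons that share was not taken. With the block the counts were 10, 13 and 2, where 10.6%, 18.9% and 2.17% of named genes were called. The list was drawn up with earlier results of these data known, so its counts are a description. The median difference of the 27 was -0.09 with activin against PBS, beside 0.002 for all named genes.

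Jam2, a junctional adhesion molecule of tight junctions, read 10.92, 11.28, 11.003 and 10.72 with activin, 9.90, 9.28, 9.40 and 9.21 with activin plus follistatin, and 9.96, 9.83, 9.56 and 9.49 with PBS. All activin arrays were above all others, by 1.27 ± 0.16 over PBS, or 2.42-fold (adjusted p = 0.00128), and by 1.53 over activin plus follistatin (adjusted p = 0.000125). F11r, the related JAM-A, went the other way: it fell by 0.79 ± 0.16 against PBS (adjusted p = 0.0234) and by 1.10 against activin plus follistatin (adjusted p = 0.00122).

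Nrp1 encodes neuropilin 1, the co-receptor through which class 3 semaphorins reach plexins and which also binds vascular endothelial growth factor. It read 8.27, 8.13, 8.09 and 7.82 with activin, 10.40, 9.98, 9.64 and 10.19 with activin plus follistatin, and 9.64, 8.78, 8.87 and 9.03 with PBS. The treatments did not overlap, although PBS 1 and Activin+Follistatin 3 both rounded to 9.64. Nrp1 fell by 1.00 ± 0.20 against PBS (adjusted p = 0.0174). Its difference from activin plus follistatin was -1.97, a 3.93-fold lower signal (adjusted p = 7.46e-05). With activin plus follistatin it was above PBS by 0.97, which passed only with the block (adjusted p = 0.00699, against 0.106).

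The catenin relative Jup, plakoglobin, which serves both adherens junctions and desmosomes, fell with activin by 0.53 ± 0.09 against PBS (adjusted p = 0.0103) and by 0.91 against activin plus follistatin (adjusted p = 9.82e-05). With activin plus follistatin it was above PBS by 0.38, which passed only with the block (adjusted p = 0.00361, against 0.22). Of the proteins at integrin contacts, Zyx, zyxin, fell by 0.60 ± 0.12 and Actn4, an actin crosslinker, by 0.40 ± 0.09 against PBS (adjusted p = 0.021 and 0.0404). Ilk, integrin-linked kinase, and its partner Lims1 fell against activin plus follistatin, by 0.32 ± 0.08 and 0.23 ± 0.06 (adjusted p = 0.0216 and 0.0456). Against PBS they differed by -0.11 and -0.09 and were not called (adjusted p = 0.679 and 0.644). Dpysl2, which relays semaphorin signals to microtubules, fell by 0.70 ± 0.13 against PBS and Farp1, a guanine nucleotide exchange factor, by 0.58 ± 0.11 (adjusted p = 0.0109 and 0.018). Nck2, an adaptor downstream of Eph and other receptors, fell by 0.48 ± 0.08 against activin plus follistatin (adjusted p = 0.00256). Panx1, a membrane channel related to gap junction proteins of invertebrates, rose by 0.39 ± 0.09 in that comparison (adjusted p = 0.0173), and its rise of 0.34 over PBS passed only with the block (adjusted p = 0.00541, against 0.0722). Cgn, cingulin of tight junctions, was lower by 0.81 and passed only with the block (adjusted p = 0.00029, against 0.0538), as did its difference of -0.55 from PBS (adjusted p = 0.00604, against 0.322).

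**Figure D5:**
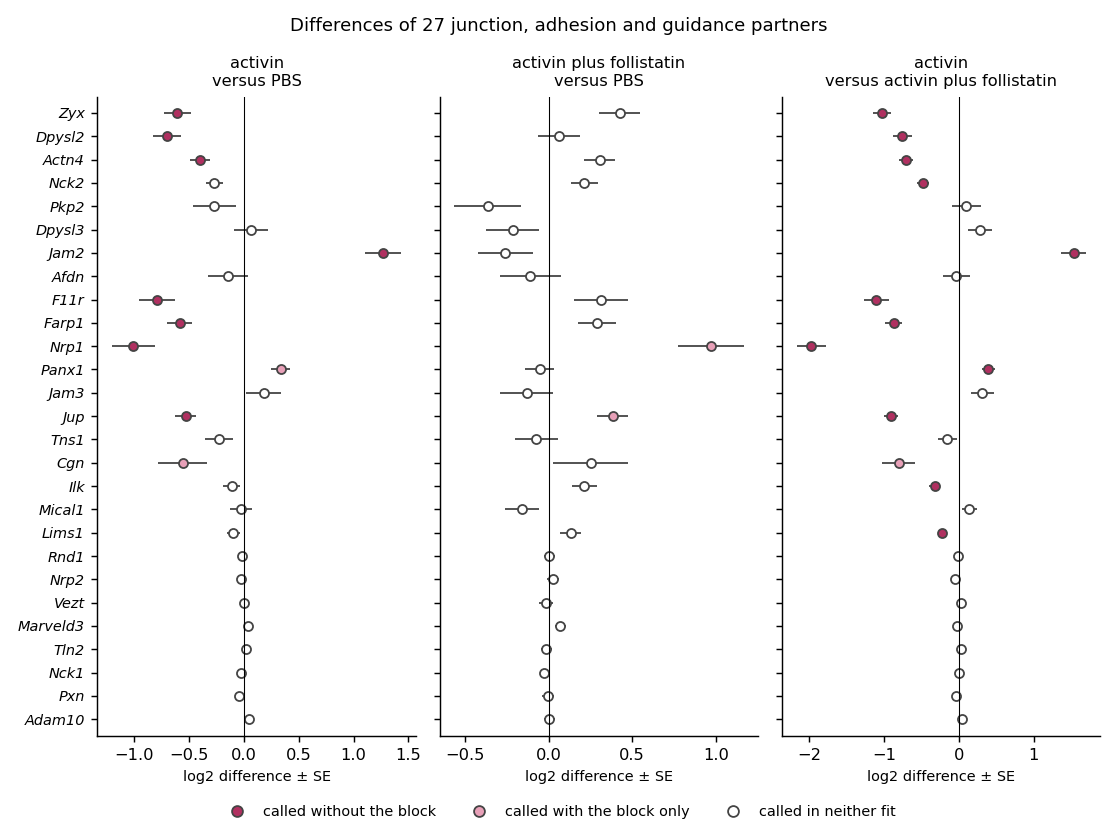
Differences (x axis, log2, points with SE bars from the fit without a block) of the 27 measured partners for activin against PBS, activin plus follistatin against PBS, and activin against activin plus follistatin. Filled points were called without the block, pale points with the block only, and open points in neither fit; Jam2 lies farthest to the right and Nrp1 farthest to the left in the first and last panels.

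Of the 4 genes that the rule leaves out, N-cadherin, alpha-catenin 1, protocadherin 9 and contactin-associated protein 2, all were called lower with activin than with activin plus follistatin. Cdh2 and Ctnna1 differed by -0.63 ± 0.10 and -0.72 ± 0.10 there (adjusted p = 0.00281 and 0.00106), in the direction of Ctnnd1. The counts over the 127 members do not include them.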

How the data were processed

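The deposited table holds 1 log2 value per probe and array, normalized between arrays by the authors by a method not given in the sources used here, and lumi 1.2.0 is named without its role per the submitters' processing notes. The values were read as plain log2, although a variance-stabilizing transform near log2 could give a similar range and no source names either. The table has no gene names. The number in a probe's identifier was read as an Entrez gene number and matched to RefSeq's mouse gene table on assembly GRCm38.p6 (the files do not say what the number is), which named 9832 of 46084 tested probes, and 36252 have no name here. A total of 32 control spots were left out, and the highest mean among them was taken as background. No detection calls were given, and the number of arrays limits the precision.

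Groups were taken from the labels. limma 3.58.1 in R 4.3.3 fitted 3 group means over the 12 arrays with no block, p-values were 2-sided and adjusted by Benjamini and Hochberg's method across the 46084 probes, calls were made below 0.05, and an F-test over experiments came from the fit with treatment and experiment. The labels number the arrays, and the submitters' description of the design says that arrays with the same number come from 1 experiment, which pairs them. The main fit leaves this pairing out, and the blocked fit uses it. Over 14707 probes above background, deviations from group means correlated between arrays of the same number at 0.331 to 0.801 and between others at -0.632 to 0.406. Such deviations cancel out within a treatment, which by itself lowers the correlations between different numbers. With experiment as a random block, the consensus correlation within an experiment over the 46084 probes was 0.0791. The blocked value is printed for members and partners where it changes a call. Alternatives were the block (fixed or random), quantile normalization, median centring, a filter at background, array weights, the mean of a gene's probes, and leaving out each array or experiment. The filter combined with the block, and the block without each experiment, were added after seeing the data. The fits were tested on simulated data.

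Genes named in the text are the members called without the block, those called with it, the brightest probe of each family, a list of known junction genes where measured, and the members with the smallest p between experiments, while partners are named where called. The members and all lists were chosen with earlier results of these data known. Promoters are from RefSeq, where 58 members have an entry, and motifs were counted on both strands of the 250 bases before the start. A single member, counted in the totals, is not reported here by name or drawn.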

Additional observations from a re-analysis of the deposited data

Results flagged for a closer look

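In each treatment of 4 arrays, the values of the 30 named members were searched for an array far from the other 3, which gave 5 of 90 groups, and chance gives about 1 in 20. Cdh13 read 8.12 in PBS 4, where the other PBS arrays read 7.21 to 7.33. Vcam1 read 8.76 in Activin+Follistatin 4, against 7.71 to 7.86 in the others of that treatment. Cntn2 read 8.43 in Activin 3, against 7.51 to 7.65, and 7.28 in Activin+Follistatin 4, against 7.11 to 7.12. Dsg1a, below background, read 7.24 in PBS 2, against 7.29 to 7.30. Dcn, a stromal gene, was also highest in experiment 4 with activin plus follistatin and with PBS, at 11.87 and 11.004. Lyz2, a leukocyte gene close to background, was highest in experiment 4 with every treatment. The part of stromal cells or leukocytes in the values of Cdh13 and Vcam1 was not tested.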

How the results depend on the processing

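With the replicate block the count of members called moved to 8 for activin against PBS, against 3 without it, to 18 for activin against activin plus follistatin, against 8, and to 1 for activin plus follistatin against PBS, against 0. The same block on probes above background gave 8, 17 and 1. Over all probes the block moved the counts to 2820, 5087 and 557, against 1342, 3296 and 82. Testing only probes above background, which adjusts over fewer probes, gave 5 for activin against PBS. Leaving out 1 array gave 1 to 4 members for activin against PBS, where 1 was left without PBS 1, Activin+Follistatin 2, PBS 3, Activin+Follistatin 3 or PBS 4, and 4 to 11 for activin against activin plus follistatin, lowest without Activin 2 at 4 and without Activin+Follistatin 3 or 4 at 5. Leaving out 1 experiment gave 1 to 3 and 3 to 7, lowest without experiment 2, and 3 to 6 for the differences between experiments. The block without 1 experiment gave 1 to 6, 9 to 15 (14 without experiment 3 and 15 without experiment 4), and for activin plus follistatin against PBS 0 to 2. Quantile normalization, median centring, array weights, a random block and the mean of a gene's probes kept every count within 1.5 times its value. Of 2478 other values, 0 changed sign while called, 78 lost a call, 102 gained one, and 79 that were called in neither fit took the other sign. Signals close to background limit what can be seen in 96 of the 127 members.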
